A study of Mus musculus with 6 samples.

Results

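The 72 genes described here make up the thioredoxin, glutathione and metallothionein redox system of the mouse as a 2-colour Agilent 4x44k array measures it. They were chosen by the gene names of the array: the glutathione S-transferases, glutathione peroxidases 1 to 7, peroxiredoxins 1 to 6, all names that start with Txn, superoxide dismutases 1 to 3, metallothioneins 1 to 4, and 9 named genes of glutathione supply and antioxidant defence. They are measured by 119 probes on 155 spots, of 27670 genes, 41174 probes and 43379 spots in all. No measured value entered this choice. Cultured kidneys of CD1 mouse embryos, dissected at E13.5 and grown on filters, received 2.0 µg/ml of Scriptaid or 2.0 µg/ml of Nullscript for 6 hours, the kidneys of a pair receiving different drugs. Scriptaid, a hydroxamic acid, inhibits histone deacetylases, and Nullscript is a relative with a shorter carbon chain that serves as its inactive control. RNA of both drugs shared each array, and each of the 3 biological replicates has 2 arrays of exchanged dyes, which makes 6 arrays. No untreated kidneys are among these samples, and the labels do not say how many embryos or litters make a replicate.

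The drug names of the channels are in doubt, so every direction below is tied to the labels. By the dye fields of the arrays, 6 of 6 genes known to rise with histone deacetylase inhibitors in other cells were lower in the channel labelled Scriptaid, with log2 ratios between -1.72 and -0.16. Of 5 genes known to fall, 4 were higher there, up to 1.90 for Ccnd1, and Top2a had 0.03. The array titles put the drug of the Cy3 channel first, the deposited ratios follow the dye fields, and the series text mentions a dye exchange on 2 of 4 arrays where 6 arrays are given. Every sign in this text would turn if the names of the drugs had been swapped. "Labelled Scriptaid" and "labelled Nullscript" therefore name the channel, and a log2 ratio is labelled Scriptaid over labelled Nullscript. Between 91.5% and 96.5% of spots per channel were well above background. After signs were turned, the log2 ratios of the arrays of 1 replicate, whose dyes are exchanged, correlated over probes between 0.75 and 0.86. Arrays of different replicates correlated between 0.87 and 0.94 where they had the same dyes and between 0.73 and 0.83 where the dyes were exchanged, so arrays were more alike by dye orientation than by replicate. Probes are not independent replicates. The p values measure the spread between the 3 replicates, and in whole explants fewer cells of a type and less RNA per cell cannot be told apart.

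Cells hold hydrogen peroxide and oxidised protein thiols in check by parallel chains of electron transfer that start from NADPH. Thioredoxin reductases recharge thioredoxin, which recharges the peroxiredoxins, while glutathione reductase recharges glutathione, which serves the glutathione peroxidases, glutaredoxins and the transferases that couple it to reactive compounds. Metallothioneins bind zinc and copper through many cysteines, superoxide dismutases turn superoxide into peroxide, and the transcription factor Nrf2 (Nfe2l2) drives many of these genes through antioxidant response elements.

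All 72 genes passed the background filter, and 70 were well above background in both channels of all 6 arrays. At a limma adjusted p under 0.05 over 26487 genes, 17 of the 72 were higher in labelled Scriptaid and 31 were lower, and 24 did not pass. Together 48 passed, or 66.7%, where 46.2% of all genes passed (22.5% higher and 23.7% lower in labelled Scriptaid). These shares of all genes are the background for the counts of every group and list in this text. The median log2 ratio was -0.09 over the 72 genes and -0.01 over all genes, and the median size of the ratio was 0.25 against 0.10. All genes were not matched to the 72 in brightness, and the part of brightness in these differences was not tested. Most differences were small: 37 of the 48 were under 1.5-fold (77.1%), as were 76.4% of all genes that passed. Of the 72 genes 5 passed with at least 2-fold, where 3.03% of all genes did. These 5 were Mt2, Mt1 and Txnip, lower in labelled Scriptaid, and Gpx7 and Txnl4b, higher there. In 47 of the 72 genes (65.3%) the 3 levels of the channels did not overlap, against 34.0% of all genes. All 48 that passed had 1 sign in the 3 replicates, which a test of their mean against 0 largely requires. Without replicate 3, which leaves the 2 replicates of 1 slide, 9 were higher and 23 lower; the other slide holds replicate 3 alone. With all 6 arrays, a dye term and the replicate as a block, Glrx3 no longer passed, and Gpx3, Gpx4, Gss, Mt3, Nme8, Prdx3 and Txn2 passed, Prdx3 as higher with Nme8 and the other 5 as lower.

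**Figure D1:**
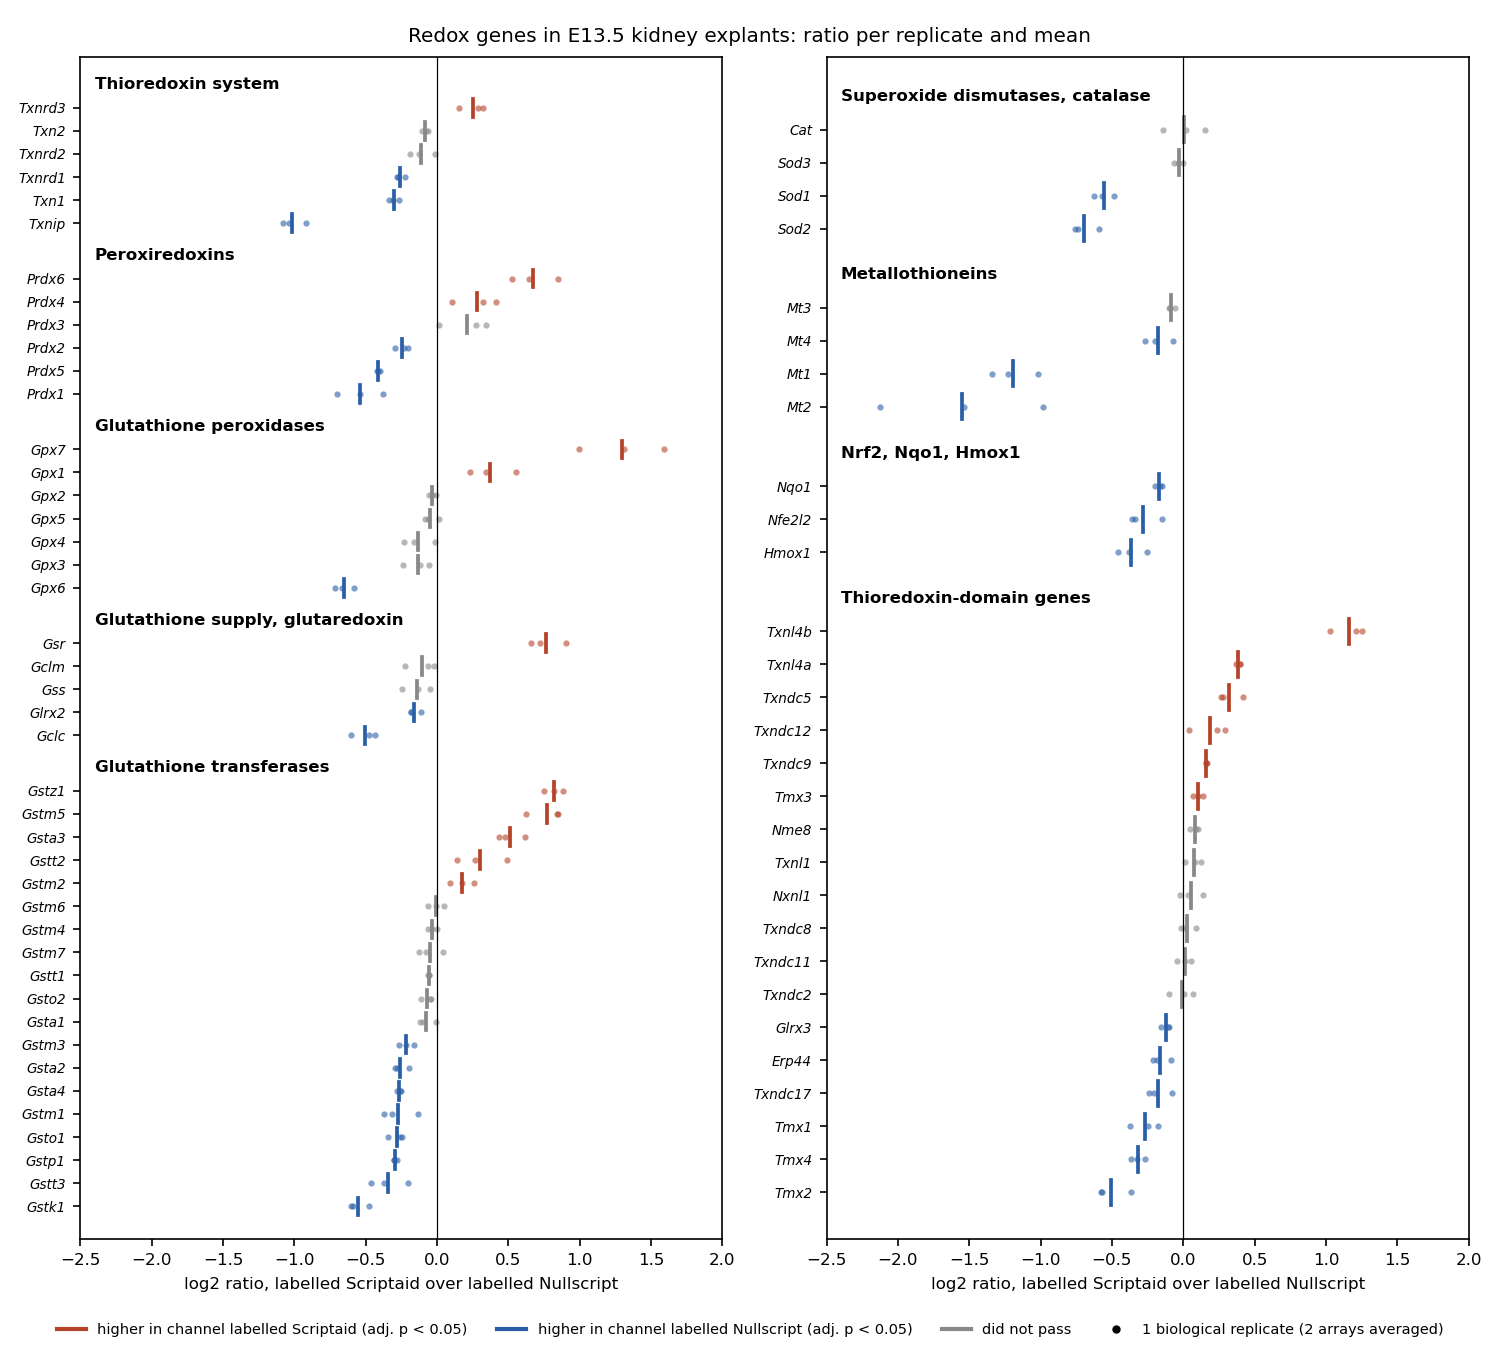
Log2 ratio of labelled Scriptaid over labelled Nullscript (horizontal axis) for the 72 redox genes, grouped by role, with a point for each of 3 replicates and a bar at their mean; colour gives the limma call. Mt2 (-1.55) and Gpx7 (1.30) mark the ends of the range, and genes of both directions stand within the glutathione transferases and the thioredoxin-domain genes.

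The thioredoxin system itself has 6 members, of which 3 were lower in labelled Scriptaid, 1 was higher and 2 did not pass. Txnip, the thioredoxin-interacting protein that binds and blocks reduced thioredoxin and also restrains glucose uptake, had the largest ratio of the group. Its level, as normalised log2 intensity in replicates 1 to 3, was 12.71, 12.29 and 12.59 in labelled Scriptaid, against 13.80, 13.32 and 13.51 in labelled Nullscript. Every labelled Scriptaid level lay below every labelled Nullscript level, by a log2 ratio of -1.01 ± 0.08 (SD, n = 3), or 2.02-fold lower (limma adjusted p = 0.000152). A dimmer probe of Txnip gave -0.80, and the arrays of either dye orientation gave the same sign. Txn1, the cytosolic thioredoxin, measured 15.29, 15.34 and 15.31 in labelled Scriptaid, against 15.62, 15.61 and 15.61 in labelled Nullscript. The channels did not overlap and its log2 ratio was -0.30 ± 0.04 (SD, n = 3, limma adjusted p = 0.00115), but its single probe was saturated on 3 arrays for labelled Scriptaid and 2 for labelled Nullscript, so the size of this ratio is uncertain. Txnrd1, the cytosolic thioredoxin reductase, measured 13.58, 13.497 and 13.69 in labelled Scriptaid, against 13.86, 13.72 and 13.98 in labelled Nullscript. Txnrd1 was lower in all 3 replicates, at a log2 ratio of -0.26 ± 0.03 (SD, n = 3, limma adjusted p = 0.00183). Txnrd3, a reductase that also accepts glutathione, went the other way. It measured 11.60, 11.48 and 11.46 in labelled Scriptaid, against 11.27, 11.32 and 11.18 in labelled Nullscript, without overlap, a log2 ratio of 0.25 ± 0.09 (SD, n = 3, limma adjusted p = 0.00681).

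The mitochondrial thioredoxin pair did not pass. Txn2 had a log2 ratio of -0.08 ± 0.02 (SD, n = 3, limma adjusted p = 0.0712). Txnrd2, its reductase, had -0.11 ± 0.09 (SD, n = 3) by its brightest probe (limma adjusted p = 0.0974), but its other 2 probes gave 0.50 and 0.20 and passed in the fit over all probes, in which 45.2% of probes passed. The brightest probe was designed on a different transcript record from these 2, and which transcript each channel holds was not tested.

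The promoter of Txnip is shown because its control is well described: the glucose-sensing factor MondoA (Mlxip), with its partner Mlx, binds a pair of E-box-like sites there. The 250 bases before the annotated RefSeq start, at chr3:96557707-96557956 (plus strand) of GRCm38.p6, hold 1 pair of CACNNG sites 5 bases apart, at position -85 counted from the start, printed in capitals. This pair was added after the sequence was seen, and it was searched on both strands.

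Txnip: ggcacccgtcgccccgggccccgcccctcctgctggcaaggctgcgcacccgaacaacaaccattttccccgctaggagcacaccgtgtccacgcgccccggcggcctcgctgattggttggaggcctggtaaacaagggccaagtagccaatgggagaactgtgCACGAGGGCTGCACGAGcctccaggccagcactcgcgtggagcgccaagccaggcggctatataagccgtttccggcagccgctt

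Such a pair is found before 1.03% of 27025 genes with a RefSeq promoter, and before 3 of the 62 redox genes that have one (Gstp1, Mt4 and Txnip, or 4.84%). The plain E-box CACGTG has no match before Txnip, and 4 of the 62 genes hold one (6.45%, against 6.86% of all genes). Mlxip and Mlx were both lower in labelled Scriptaid, with log2 ratios of -0.64 and -0.27 (limma adjusted p = 0.00041 and 0.0025), as was their glucose-responsive relative Mlxipl at -0.29. Among the other alpha-arrestins, the family of Txnip, Arrdc2 (-0.59) and Arrdc1 (-0.18) were lower, Arrdc4 (0.56) and Arrdc3 (0.45) were higher and Arrdc5 (-0.02) did not pass. The listed window before Arrdc4 holds no such pair. In this list of 9 relatives and regulators 2 were higher and 5 lower, against 22.5% and 23.7% of all genes. The median of the list was -0.24.

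Peroxiredoxins, which reduce peroxide with a reactive cysteine, split by direction. Prdx6, which also has phospholipase activity and draws on glutathione, measured 14.46, 14.32 and 14.44 in labelled Scriptaid, against 13.62, 13.79 and 13.80 in labelled Nullscript. All 3 replicates were higher in labelled Scriptaid without overlap, at a log2 ratio of 0.67 ± 0.16 (SD, n = 3), or 1.60-fold higher (limma adjusted p = 0.00106), and its other 3 probes gave 0.62, 0.46 and 0.07. Prdx4, the peroxiredoxin of the endoplasmic reticulum, measured 14.48, 14.26 and 14.40 in labelled Scriptaid, against 14.07, 14.16 and 14.09 in labelled Nullscript. Prdx4 was higher, at a log2 ratio of 0.28 ± 0.16 (SD, n = 3, limma adjusted p = 0.0205), with 0.27 by a further probe. Prdx1, the abundant cytosolic form, measured 14.46, 13.95 and 14.33 in labelled Scriptaid, against 14.84, 14.65 and 14.87 in labelled Nullscript. Its channels did not overlap either, and it was lower, at a log2 ratio of -0.54 ± 0.16 (SD, n = 3, limma adjusted p = 0.00218). Prdx5, found in mitochondria and peroxisomes, measured 11.90, 11.78 and 11.85 in labelled Scriptaid, against 12.30, 12.20 and 12.28 in labelled Nullscript. Prdx5 was lower, at a log2 ratio of -0.41 ± 0.01 (SD, n = 3, limma adjusted p = 0.000374). Prdx3, the mitochondrial form that mitochondrial thioredoxin recharges, had 0.21 ± 0.17 (SD, n = 3) and did not pass (limma adjusted p = 0.0618).

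Prdx2 has no settled direction. Its brightest probe was saturated on all 6 arrays in labelled Scriptaid and on 3 in labelled Nullscript, and passed at -0.24 (limma adjusted p = 0.00287). That is the value counted among the 31 lower genes. On arrays with Scriptaid labelled in Cy3 the ratio of this probe averaged 0.37, and on arrays with Scriptaid labelled in Cy5 it averaged -0.86. Its other 2 probes were saturated on no array, gave 0.19 and 0.21, and passed as higher. The saturated probe therefore gives no usable size, and the other probes stand on the opposite side.

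**Figure D2:**
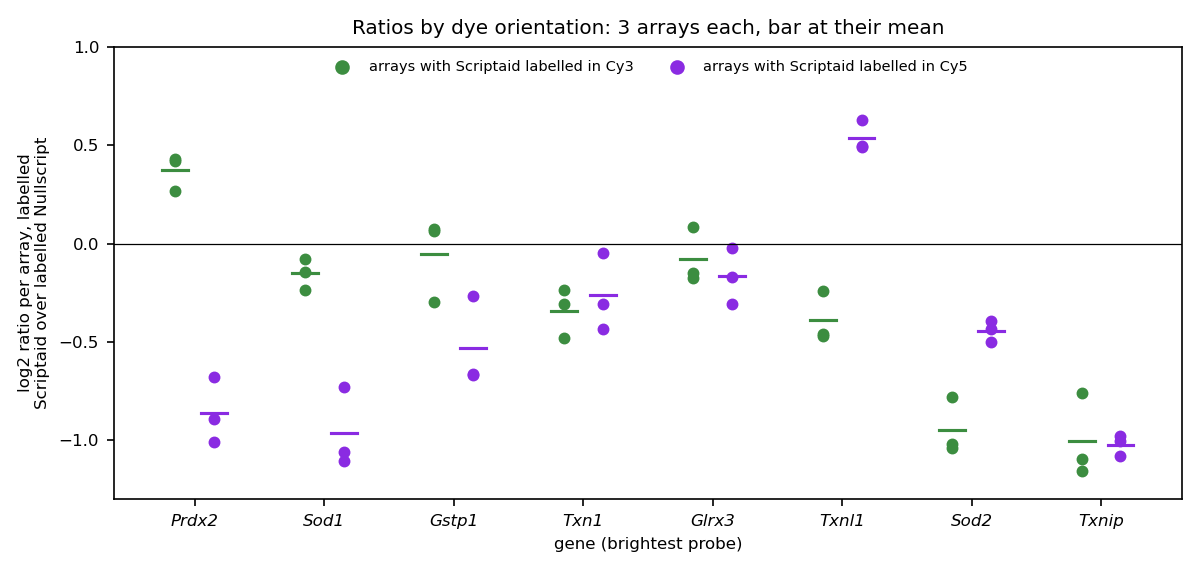
Log2 ratio per array of labelled Scriptaid over labelled Nullscript (vertical axis) for 8 brightest probes, with 3 arrays of each dye orientation and a bar at their mean. Prdx2 and Txnl1 lie on opposite sides of 0 in the 2 orientations, whereas Txnip gave nearly the same ratio in both.

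Glutathione peroxidases, which reduce peroxides at the cost of glutathione, gave 2 higher and 1 lower gene of 7. Gpx7, a peroxidase of the endoplasmic reticulum that passes oxidising power on to protein folding, had the largest positive ratio of all 72 genes. It measured 11.02, 10.72 and 10.68 in labelled Scriptaid, against 9.43, 9.73 and 9.37 in labelled Nullscript. The lowest labelled Scriptaid level stood well above the highest labelled Nullscript level, with a log2 ratio of 1.30 ± 0.30 (SD, n = 3), or 2.46-fold higher (limma adjusted p = 0.000785). Gpx1, the main cytosolic selenoenzyme of the family, measured 14.19, 14.15 and 14.04 in labelled Scriptaid, against 13.64, 13.92 and 13.70 in labelled Nullscript. Gpx1 was higher, at a log2 ratio of 0.37 ± 0.16 (SD, n = 3, limma adjusted p = 0.00816). Gpx6, best known from olfactory tissue, measured 8.66, 8.21 and 8.26 in labelled Scriptaid, against 9.33, 8.79 and 8.97 in labelled Nullscript. Gpx6 was lower, at a log2 ratio of -0.66 ± 0.07 (SD, n = 3), or 1.57-fold lower (limma adjusted p = 0.000257). Gpx4, which reduces lipid peroxides in membranes and guards against ferroptosis, measured 14.82, 14.68 and 14.55 in labelled Scriptaid, against 14.83, 14.84 and 14.79 in labelled Nullscript. Those levels overlapped, and its log2 ratio of -0.14 ± 0.11 (SD, n = 3) did not pass (limma adjusted p = 0.0847). The secreted Gpx3 had -0.14, the epithelial Gpx2 -0.03 and the epididymal Gpx5 -0.05, and none of these 3 passed.

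Enzymes that make and recharge glutathione also went apart. Gsr, the NADPH-dependent glutathione reductase, measured 11.85, 11.71 and 11.76 in labelled Scriptaid, against 10.95, 11.05 and 11.03 in labelled Nullscript. Gsr was higher without overlap, at a log2 ratio of 0.76 ± 0.13 (SD, n = 3), or 1.70-fold higher (limma adjusted p = 0.000452), and its 3 probes gave between 0.75 and 0.77. Gclc, the catalytic subunit of the ligase that limits glutathione synthesis, measured 11.12, 11.06 and 11.11 in labelled Scriptaid, against 11.59, 11.66 and 11.54 in labelled Nullscript. Gclc was lower in all replicates, at a log2 ratio of -0.51 ± 0.09 (SD, n = 3), or 1.42-fold lower (limma adjusted p = 0.0007). Gclm, the modifier subunit of the same ligase, measured 8.95, 8.71 and 8.79 in labelled Scriptaid, against 9.02, 8.93 and 8.81 in labelled Nullscript. Here the channels overlapped and the log2 ratio of -0.10 ± 0.11 (SD, n = 3) did not pass (limma adjusted p = 0.148). Gss, which adds the last amino acid of glutathione, had -0.14 ± 0.10 (SD, n = 3) and did not pass either (limma adjusted p = 0.0556). Glrx2, the mitochondrial glutaredoxin, measured 12.78, 12.89 and 12.89 in labelled Scriptaid, against 12.97, 13.00 and 13.07 in labelled Nullscript. Glrx2 was lower, at a log2 ratio of -0.16 ± 0.04 (SD, n = 3, limma adjusted p = 0.0113), with -0.39 and 0.05 by its other probes. Of 23 further genes of glutathione supply and turnover, 8 were higher and 13 lower, against 22.5% and 23.7% of all genes. The median of these 23 was -0.30. The largest ratios belonged to Hagh (-1.12), the glyoxalase that frees glutathione in the last step of methylglyoxal disposal, Ggct (-0.97), a cyclotransferase of the gamma-glutamyl cycle, and Mgst3 (-0.94), a microsomal glutathione transferase. The second probe of Ggct gave 0.04, and those of Mgst3 gave -0.89 and -0.48.

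The 19 glutathione transferases went in both directions, 5 higher and 8 lower in labelled Scriptaid, and 6 did not pass. Gstz1, of the zeta class, which breaks down a tyrosine catabolite, measured 10.62, 10.46 and 10.49 in labelled Scriptaid, against 9.80, 9.71 and 9.61 in labelled Nullscript. Gstz1 was higher without overlap, at a log2 ratio of 0.82 ± 0.07 (SD, n = 3), or 1.76-fold higher (limma adjusted p = 0.000172). In the mu class, Gstm5 measured 13.25, 13.06 and 13.19 in labelled Scriptaid, against 12.41, 12.43 and 12.34 in labelled Nullscript. Gstm5 was higher, at a log2 ratio of 0.77 ± 0.13 (SD, n = 3), or 1.71-fold higher (limma adjusted p = 0.00043). Gstm2 measured 11.91, 11.90 and 11.85 in labelled Scriptaid, against 11.82, 11.65 and 11.68 in labelled Nullscript. Gstm2 was higher, at a log2 ratio of 0.17 ± 0.08 (SD, n = 3, limma adjusted p = 0.0227). Other mu genes were lower. Gstm1, a major liver form, measured 13.27, 13.42 and 13.17 in labelled Scriptaid, against 13.64, 13.55 and 13.49 in labelled Nullscript. Gstm1 was lower, at a log2 ratio of -0.27 ± 0.12 (SD, n = 3, limma adjusted p = 0.0114), while a dimmer probe gave -0.06 and did not pass. Gstm3 measured 12.49, 12.44 and 12.46 in labelled Scriptaid, against 12.71, 12.60 and 12.72 in labelled Nullscript. Gstm3 was lower, at a log2 ratio of -0.22 ± 0.05 (SD, n = 3, limma adjusted p = 0.00509). In none of these 5 genes did the channels overlap.

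The alpha class, known for conjugating products of lipid peroxidation, split as well. Gsta3 measured 9.68, 10.00 and 9.62 in labelled Scriptaid, against 9.06, 9.56 and 9.14 in labelled Nullscript. Gsta3 was higher, at a log2 ratio of 0.51 ± 0.10 (SD, n = 3), or 1.42-fold higher (limma adjusted p = 0.000805), with 0.37 by another probe. Gsta4 measured 12.48, 12.39 and 12.52 in labelled Scriptaid, against 12.76, 12.64 and 12.78 in labelled Nullscript. Gsta4 was lower, at a log2 ratio of -0.26 ± 0.01 (SD, n = 3, limma adjusted p = 0.00134). Gsta2 measured 6.85, 7.11 and 7.01 in labelled Scriptaid, against 7.15, 7.39 and 7.21 in labelled Nullscript, the 2 channels standing apart. Gsta2 was lower, at a log2 ratio of -0.26 ± 0.05 (SD, n = 3, limma adjusted p = 0.00269). Its levels were low, and the size of its ratio ranged from -0.49 to -0.24 over 16 alternative settings. Gstk1, the mitochondrial and peroxisomal kappa form, had the largest negative ratio among the transferases. It measured 12.11, 12.16 and 12.13 in labelled Scriptaid, against 12.70, 12.64 and 12.73 in labelled Nullscript. Gstk1 was lower, at a log2 ratio of -0.56 ± 0.07 (SD, n = 3), or 1.47-fold lower (limma adjusted p = 0.000376).

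In the theta, omega and pi classes the differences stayed under 1.5-fold. The theta gene Gstt3 measured 12.34, 12.53 and 12.47 in labelled Scriptaid, against 12.80, 12.74 and 12.85 in labelled Nullscript. Gstt3 was lower, at a log2 ratio of -0.35 ± 0.13 (SD, n = 3, limma adjusted p = 0.00563). Gstt2 measured 10.35, 10.21 and 10.33 in labelled Scriptaid, against 9.86, 10.07 and 10.06 in labelled Nullscript. Gstt2 was higher, at a log2 ratio of 0.30 ± 0.18 (SD, n = 3, limma adjusted p = 0.0222). Its replicates ranged from 0.14 to 0.49, the widest relative spread among the transferases that passed. Gsto1, of the omega class, measured 13.57, 13.54 and 13.53 in labelled Scriptaid, against 13.92, 13.79 and 13.79 in labelled Nullscript. Gsto1 was lower, at a log2 ratio of -0.28 ± 0.05 (SD, n = 3, limma adjusted p = 0.00202). Gstp1, the pi form, measured 15.48, 15.45 and 15.51 in labelled Scriptaid, against 15.78, 15.74 and 15.81 in labelled Nullscript. Gstp1 passed as lower, at a log2 ratio of -0.29 ± 0.01 (SD, n = 3, limma adjusted p = 0.000933). Its probe was saturated on 3 arrays for labelled Scriptaid and 2 for labelled Nullscript, and its unsaturated probe gave -0.0046. The 6 that did not pass were Gsta1 (-0.08), Gsto2 (-0.07), Gstt1 (-0.06), Gstm7 (-0.05), Gstm4 (-0.03) and Gstm6 (-0.01). Transferases of a class are related in sequence, so the signal of a probe may come from several of them, which was not tested. All 7 mu genes lie side by side on chromosome 3 in the RefSeq gene order, where 2 were higher, 2 were lower and 3 did not pass.

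Superoxide dismutases were lower in labelled Scriptaid where they passed. Sod2, the manganese enzyme of mitochondria, measured 14.05, 14.15 and 14.27 in labelled Scriptaid, against 14.81, 14.74 and 15.01 in labelled Nullscript. The channels did not overlap and the log2 ratio was -0.69 ± 0.09 (SD, n = 3), or 1.62-fold lower (limma adjusted p = 0.000328). Its ratio changed with the dye orientation (limma adjusted p of the dye effect = 0.00967) and was negative on all 6 arrays. Sod1, the cytosolic copper-zinc enzyme, measured 15.39, 15.51 and 15.44 in labelled Scriptaid, against 16.01, 15.998 and 16.005 in labelled Nullscript. Sod1 was lower, at a log2 ratio of -0.56 ± 0.07 (SD, n = 3, limma adjusted p = 0.000383), but its brightest probe was saturated on 3 arrays in each channel and showed a dye effect too (limma adjusted p = 0.00363). Other probes of Sod1, saturated on none but far dimmer and designed on another transcript record, gave -0.32 and -0.04. Across all genes 5.43% had a dye effect that passed, against 4 of the 72 (Prdx2, Sod1, Sod2 and Txnl1). Cat, the peroxisomal catalase, measured 12.74, 12.40 and 12.35 in labelled Scriptaid, against 12.59, 12.54 and 12.33 in labelled Nullscript. Those levels overlapped, and its log2 ratio of 0.01 ± 0.15 (SD, n = 3) did not pass (limma adjusted p = 0.933). Sod3, the extracellular form, had -0.03 ± 0.03 (SD, n = 3) and did not pass (limma adjusted p = 0.434); it was well above background on 3 of 6 arrays in each channel.

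Metallothioneins held the largest ratio of all 72 genes. Mt2 measured 11.98, 12.80 and 12.30 in labelled Scriptaid, against 14.11, 13.79 and 13.84 in labelled Nullscript. Every labelled Scriptaid level lay below every labelled Nullscript level, with a log2 ratio of -1.55 ± 0.57 (SD, n = 3), or 2.93-fold lower (limma adjusted p = 0.00341). The replicates differed widely in size, at -2.12, -0.99 and -1.54, and on each of the 6 arrays the sign was negative. Mt1, the second form present in most tissues, measured 10.79, 11.19 and 10.87 in labelled Scriptaid, against 12.13, 12.20 and 12.10 in labelled Nullscript. Mt1 was lower without overlap, at a log2 ratio of -1.20 ± 0.17 (SD, n = 3), or 2.29-fold lower (limma adjusted p = 0.000254). A second and dimmer probe named Mt1, designed on another transcript record, gave 0.01. Mt4, known from squamous epithelia, measured 10.93, 10.99 and 10.87 in labelled Scriptaid, against 11.00, 11.26 and 11.06 in labelled Nullscript. Mt4 was lower, at a log2 ratio of -0.18 ± 0.10 (SD, n = 3, limma adjusted p = 0.0286), with -0.03 by its other probe. Mt3, the brain form, had -0.08 ± 0.02 (SD, n = 3) and did not pass (limma adjusted p = 0.0665). The 4 genes are direct neighbours on chromosome 8. They are related in sequence, and whether their probes share signal was not tested.

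Zinc activates Mt1 and Mt2 through the factor Mtf1, which binds metal response elements. The 250 bases before the annotated start are shown for both, at chr8:94172368-94172617 (plus strand) and chr8:94178839-94179088 (plus strand) of GRCm38.p6 as given by RefSeq, with matches to the core TGCACNC or TGCGCNC on either strand in capitals.

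Mt2: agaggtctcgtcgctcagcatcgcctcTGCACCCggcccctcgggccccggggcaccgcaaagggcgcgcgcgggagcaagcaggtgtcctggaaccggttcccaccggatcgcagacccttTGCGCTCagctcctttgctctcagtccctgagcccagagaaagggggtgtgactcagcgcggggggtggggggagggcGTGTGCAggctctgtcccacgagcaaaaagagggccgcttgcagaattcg
Mt1: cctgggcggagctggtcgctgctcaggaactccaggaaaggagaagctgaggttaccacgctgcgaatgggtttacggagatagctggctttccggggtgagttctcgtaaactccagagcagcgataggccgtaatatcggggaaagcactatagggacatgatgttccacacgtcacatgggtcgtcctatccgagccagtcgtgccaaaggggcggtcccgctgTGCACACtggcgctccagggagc

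Mt2 holds 3 matches, at positions -223, -128 and -50, and Mt1 holds 1, at -23. Before Mt4 there was 1 match and before Mt3 none. At least 1 match stands before 17 of the 62 redox genes (27.4%) and 23.8% of all genes, and 3 or more before 1.46% of all genes, so single matches are common. Only the window before this annotated start was searched. Elements further upstream or beyond the start were not counted, so 3 and 1 are not totals for Mt2 and Mt1. Of 22 other genes of metal handling, 5 were higher and 13 lower in labelled Scriptaid, against 22.5% and 23.7% of all genes. The median of these 22 was -0.18. Slc30a1, the zinc exporter that Mtf1 also controls, was lower at -1.02 (limma adjusted p = 0.00016), with -0.46 by another probe, and so was the copper chaperone Atox1 at -1.08 (limma adjusted p = 0.00019). Slc39a10, a zinc importer, was higher at 1.02 (limma adjusted p = 0.001). Mtf1 itself has no settled direction: its brightest probe passed at 0.26 (limma adjusted p = 0.0018), and its other probes gave -0.42 and 0.06. Among iron stores, the ferritin chain Fth1 passed as lower at -0.53, a size left uncertain by a probe saturated on 3 arrays in each channel, and Ftl1 had -0.12 and did not pass.

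**Figure D3:**
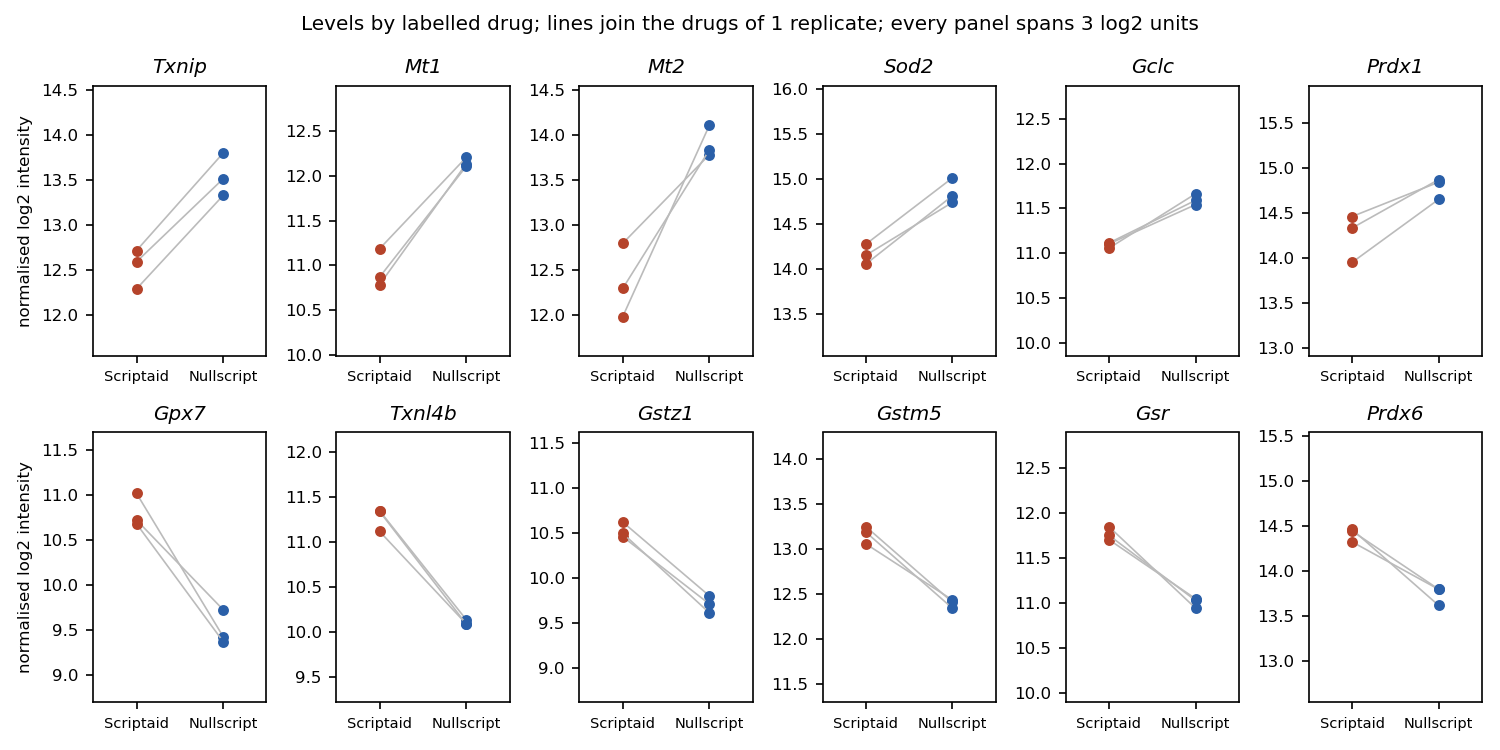
Normalised log2 intensity (vertical axis, each panel 3 log2 units high) of 12 redox genes with labelled Scriptaid left and labelled Nullscript right; grey lines join the channels of 1 replicate. In the upper row all 3 lines climb towards labelled Nullscript, steepest for Mt2, and in the lower row all 3 descend, steepest for Gpx7.

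Nrf2 and its classical markers were lower in labelled Scriptaid by small amounts. Nfe2l2, which encodes Nrf2, measured 12.91, 12.90 and 12.84 in labelled Scriptaid, against 13.06, 13.26 and 13.18 in labelled Nullscript. Nfe2l2 was lower, at a log2 ratio of -0.28 ± 0.12 (SD, n = 3, limma adjusted p = 0.00892), with -0.24 by a probe on the same transcript record and 0.02 and 0.03 by dimmer probes on others. Hmox1, the haem oxygenase, measured 10.68, 10.70 and 10.77 in labelled Scriptaid, against 11.14, 10.96 and 11.16 in labelled Nullscript. Hmox1 was lower, at a log2 ratio of -0.37 ± 0.10 (SD, n = 3, limma adjusted p = 0.00271). Nqo1, the quinone reductase often used to read Nrf2 activity, measured 8.31, 8.35 and 8.25 in labelled Scriptaid, against 8.47, 8.50 and 8.45 in labelled Nullscript. Nqo1 was lower, at a log2 ratio of -0.17 ± 0.02 (SD, n = 3, limma adjusted p = 0.00649), and in none of these 3 genes did the channels overlap.

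Of 30 further Nrf2 regulators and targets that could be tested, 10 were higher and 11 lower, against 22.5% and 23.7% of all genes. The median of these 30 was -0.08. Keap1, which targets Nrf2 for degradation, was higher at 0.77 (limma adjusted p = 0.00014). Blvrb, a biliverdin reductase, had the largest ratio at -1.56 (limma adjusted p = 0.00012). Blvra, the other biliverdin reductase, had 0.63 by its brightest probe, which passed, and 0.01 by another. Srxn1, the sulfiredoxin that repairs overoxidised peroxiredoxins, was lower at -0.65 (limma adjusted p = 0.00033), with -0.22 and -0.18 by other probes, as was Mafk, a small Maf partner of Nrf2, at -0.69 (limma adjusted p = 0.028). Genes of NADPH supply and the pentose phosphate pathway differed in sign: G6pdx (0.39), Idh1 (0.43) and Me1 (0.39) were higher, and Pgd (-0.37) and Taldo1 (-0.60, saturated on 2 arrays in each channel) lower. Targets of Nrf2 thus stood on both sides within and outside the 72 genes.

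The antioxidant response element that Nrf2 binds has the core TGACNNNGC. Of the 62 redox genes with a RefSeq promoter, 13 hold it in the 250 bases before at least 1 annotated start (21.0%, against 11.5% of all genes). In Gstm7, Txndc2, Txndc5, Txndc11 and Txnrd1 it stands before only 1 of 2 or 3 starts. Of these 13, 3 were higher in labelled Scriptaid, 6 were lower and 4 did not pass. The AP-1 site TGACTCA, which can overlap that core, was found before 5 of the 62 (8.06%, against 5.16% of all genes), and overlaps it in Prdx1 and Mt2. The core is shown in capitals, with the bases around it and on the strand where it reads as TGACNNNGC, for genes of different direction: Prdx1 at chr4:116685454-116685486 (minus strand), Txnrd1 at chr10:82859102-82859134 (minus strand), Gclm at chr3:122245411-122245443 (minus strand) and Gsta3 at chr1:21240452-21240484 (plus strand), all of GRCm38.p6.

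Prdx1: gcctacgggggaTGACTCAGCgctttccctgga
Txnrd1: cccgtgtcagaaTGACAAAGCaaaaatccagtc
Gclm: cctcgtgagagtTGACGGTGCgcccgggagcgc
Gsta3: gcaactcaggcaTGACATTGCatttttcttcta

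Prdx1 (-0.54) and Txnrd1 (-0.26) were lower, Gsta3 (0.51) was higher and Gclm (-0.10) did not pass. A match is a description of the letters only, and binding was not measured.

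The remaining 18 genes entered by an array name that starts with Txn, though Tmx1 to Tmx4, Erp44, Glrx3, Nme8 and Nxnl1 have since been renamed. They have varied tasks: 6 were higher, 6 were lower and 6 did not pass. Txnl4b, a relative of a spliceosome protein, measured 11.35, 11.12 and 11.34 in labelled Scriptaid, against 10.14, 10.09 and 10.09 in labelled Nullscript. Txnl4b was higher without overlap, at a log2 ratio of 1.16 ± 0.12 (SD, n = 3), or 2.24-fold higher (limma adjusted p = 0.00017), and by 0.29 at a dimmer probe on the same transcript record, which also passed. Txnl4a, that spliceosome protein, measured 14.39, 14.26 and 14.30 in labelled Scriptaid, against 13.99, 13.89 and 13.91 in labelled Nullscript. Txnl4a was higher, at a log2 ratio of 0.39 ± 0.02 (SD, n = 3, limma adjusted p = 0.000446), but its other probes gave 0.03 and -0.01. Tmx2 and Tmx4, membrane thioredoxins of the endoplasmic reticulum, were lower. Tmx2 measured 12.80, 12.67 and 12.58 in labelled Scriptaid, against 13.16, 13.25 and 13.15 in labelled Nullscript, a log2 ratio of -0.51 ± 0.12 (SD, n = 3, limma adjusted p = 0.00135). Tmx4 measured 11.71, 11.84 and 11.90 in labelled Scriptaid, against 12.03, 12.21 and 12.17 in labelled Nullscript, a log2 ratio of -0.32 ± 0.05 (SD, n = 3, limma adjusted p = 0.00119). In both, all 3 replicates had lower levels in labelled Scriptaid and the channels did not overlap. The other tested probe of Tmx2 gave -0.31 and passed, whereas those of Tmx4 gave -0.15 and -0.03 and did not.

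Within the endoplasmic reticulum the disulfide enzymes had both signs. Txndc5 (0.32), Txndc12 (0.19) and Tmx3 (0.11) were higher, while Tmx1 (-0.27) and the retention chaperone Erp44 (-0.16) were lower. In the cytosol, Txndc9 (0.16), which modulates a chaperonin, was higher, and Txndc17 (-0.18) and the iron-sulfur glutaredoxin Glrx3 (-0.12, saturated on 3 arrays in labelled Scriptaid) were lower. The 6 that did not pass were Nme8 (0.08), Txnl1 (0.07), Nxnl1 (0.05), Txndc8 (0.03), Txndc11 (0.01) and Txndc2 (-0.01). Dimmer probes of Txndc5 (0.02) and Glrx3 (0.02) did not pass, nor did those of Tmx3 (0.11, 0.11 and -0.02), and 1 of the other probes of Txndc11 passed at 0.24. Nme8, Txndc8 and Txndc2 are known from the testis and Nxnl1 from the retina.

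Probes of a gene often differed in size. Of the 72 genes, 30 have more than 1 tested probe, among them 23 that passed. Their 37 further probes had the sign of the brightest probe in 28 cases, and 15 passed in the same direction. For 7 genes every further probe passed in the same direction (Gsr, Gsta3, Prdx4, Tmx1, Tmx2, Txnip and Txnl4b), and for 10 none did (Glrx3, Gstm1, Gstp1, Mt1, Mt4, Prdx2, Tmx3, Tmx4, Txndc5 and Txnl4a). The 2 probes that passed in the opposite direction belong to Prdx2. Over all 118 tested probes, 29 were higher and 38 lower in labelled Scriptaid. In the same fit 45.2% of all probes of the array passed in either direction.

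**Figure D4:**
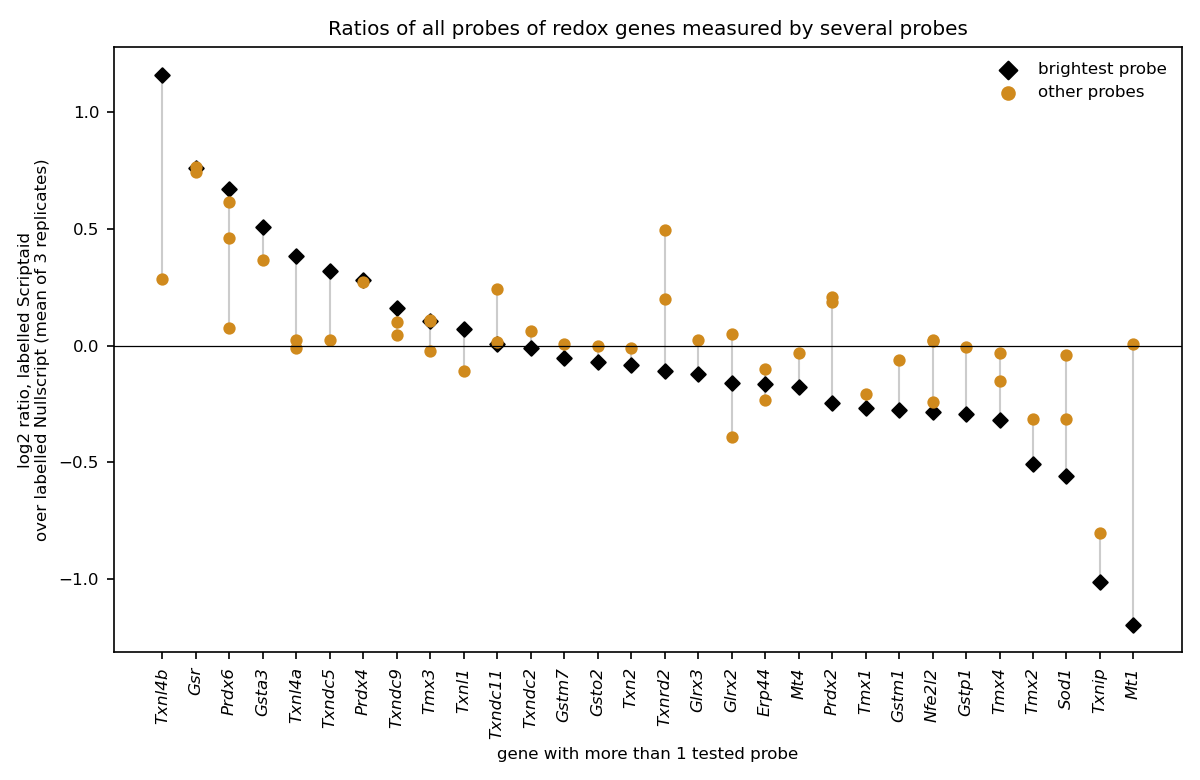
Mean log2 ratio over 3 replicates of labelled Scriptaid over labelled Nullscript (vertical axis) for every tested probe of the 30 redox genes with more than 1; black diamonds are the brightest probe and orange points the others. Gsr and Prdx4 probes nearly coincide, while the probes of Mt1, Txnl4b, Txnrd2 and Prdx2 lie apart.

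Cell type markers moved between the channels too, and their part in the redox ratios was not tested. In labelled Scriptaid, 9 of 9 nephron progenitor markers were higher (0.10 to 1.64), as were 6 of 7 stromal markers (-0.31 to 1.71) and 5 of 7 endothelial markers (-0.21 to 1.78). Among ureteric bud markers 4 of 9 were higher and 1 lower, among proximal tubule markers 4 of 7 and 1, and among macrophage markers 5 of 8 and 1. Of 10 red blood cell markers 4 were lower, between -0.34 and -0.13, and 6 did not pass. The nephron progenitor markers all passed the background filter. These counts use the brightest probe of each marker, and other probes of some markers differed. Pecam1 gave 0.66 and 0.00, Pdgfra 0.86 and 0.12, and Ptprc 1.07 against -0.11, 0.02 and 0.15. In the progenitor list, Eya1 gave 1.64 and 0.48, and Osr1 0.10 and 0.83. Other markers had probes that were more alike, such as Cdh5 (0.95 and 0.80) and Foxd1 (0.56 and 0.55).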

How the data were processed

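The deposited scanner files give spot and local background intensity for Cy3 and Cy5, written by Agilent Feature Extraction 9.1.3.1 per the file headers. Per the file headers, they also hold log10 ratios (Cy5 over Cy3). The series value table deposited by the authors holds log10 ratios that equal the scanner ratios turned to labelled Scriptaid over labelled Nullscript, within 4.82e-06. Any centring beyond the scanner software was not found there, and the column medians lay between -0.00959 and -0.00136.

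Mean intensities were corrected with normexp (offset 50) and normalised by loess within each array with limma 3.58.1 in R 4.3.3. Control spots had weight 0, outlier-marked spots (0.0480%) were dropped, saturated ones stayed, and repeat spots of a probe were averaged. The log2 ratios of the 2 arrays of a replicate were averaged, because the labels give both the same biological replicate number. Levels of each drug join the loess-normalised ratio of an array with its mean log2 intensity, which was quantile-normalised between arrays (limma Aquantile). The printed levels and the overlap of channels rest on that step. The ratios do not use it, apart from the choice of the brightest probe. A probe was tested if well above background for 1 of the drugs on 3 or more of the 6 arrays (39407 probes), and the brightest probe stands for its gene. lmFit and eBayes tested the replicate mean against 0, with p values adjusted by Benjamini-Hochberg over 26487 genes. The dye effect was fitted on 6 arrays with the replicate as a random block (correlation 0.0975). After the mean of each dye orientation was removed, the 2 arrays of replicates 1, 2 and 3 correlated at 0.61, 0.13 and 0.01, against -0.42 to 0.26 between replicates. The fit was tested on simulated data. The number of arrays limits the precision.

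Of 41174 probes, 22951 were named by accession, 6659 by symbol and 3109 by older symbol through the RefSeq gene table, and 8455 kept the array's name. RefSeq promoters (GRCm38.p6) were listed for 62 of the 72 genes. A gene with several annotated starts counted as holding a motif if any of its windows had a match. The files name no genome build. The members, lists and alternatives were chosen with earlier results of these data known. Full values were given, per role or transferase class, for up to 4 genes that passed with the largest ratios, and for 16 genes fixed by name. From each pathway list up to 3 genes that passed with the largest ratios were taken. One gene taken by this rule, and the list it belongs to, are not reported here. Mlxipl, Mlx, Arrdc1, Arrdc3, Arrdc5, Mtf1, Fth1, Ftl1, G6pdx, Idh1, Me1, Pgd, Taldo1, Blvra, Srxn1 and Top2a are not taken by this rule and were named once their values had been seen. The name Glrx1 of the selection matched no probe.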

Additional observations from a re-analysis of the deposited data

Results flagged for a closer look

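The ratios of 2 redox genes had opposite signs in the 2 dye orientations, on all 3 arrays of each. For Prdx2, the peroxiredoxin of the red blood cell and brain, the log2 ratio averaged -0.86 where Scriptaid was in Cy5 and 0.37 where it was in Cy3, a difference of -1.23 (limma adjusted p of the dye effect = 0.000317). Its brightest probe was saturated on all 6 arrays in labelled Scriptaid, and its unsaturated probes gave 0.19 and 0.21. For Txnl1, a thioredoxin-like protein of the proteasome, the log2 ratio averaged 0.54 where Scriptaid was in Cy5 and -0.39 where it was in Cy3, a difference of 0.93 (limma adjusted p of the dye effect = 0.000489). No array was saturated at this probe, and another probe of Txnl1 gave -0.11.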

How the results depend on the processing

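Of the 48 redox genes that passed, 27 kept their direction and their side of the threshold under all 16 alternatives that gave them a value. Over the 72 genes the alternatives gave 1146 values, of which 1013 kept both, 66 no longer passed and 34 newly passed. Another 7 changed sign with a call, and 26, from 11 genes and at most 0.146 in size, changed sign without passing before or after. Under median centring in place of loess, Glrx3 had a log2 ratio of 0.0064 and Nxnl1 -0.13. By the mean over all probes Prdx2 had 0.050 and Txnrd2 0.20. Where only the 3 arrays carrying Scriptaid in Cy3 were used, Prdx2 had 0.37, Tmx3 -0.010 and Txnl1 -0.39. The causes were not tested. For Prdx2 and Txnrd2 the ratios of the differing probes are given above. Leaving out 1 replicate in turn gave 9 to 16 redox genes higher and 23 to 30 lower in labelled Scriptaid, 17 to 28 probes higher and 24 to 37 lower, and 4312 to 5691 of all genes higher and 3994 to 5692 lower. The lowest of each came without replicate 3, which left 2 replicates that share a slide. Without replicate 3, Erp44, Glrx2, Glrx3, Gpx1, Gstm1, Gstm2, Gstt2, Mt4, Nfe2l2, Nqo1, Prdx4, Tmx3, Txndc12, Txndc17, Txndc9 and Txnrd3 no longer passed. Without replicate 2 this held for Erp44, Glrx3, Gstm2, Mt4 and Tmx3, and without replicate 1 for Glrx3, Prdx4, Tmx3, Txndc12 and Txndc17. With the slide as a block 12 redox genes were higher and 27 lower. With the replicate block and a dye term on 6 arrays, 19 were higher and 35 lower, and Glrx3 was the 1 gene of the 48 that no longer passed. Saturation limits the size of the ratios of Gstp1, Prdx2, Sod1, Glrx3 and Txn1, without which 17 genes were higher and 26 lower of 67. Sod3 lay near background.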

Other observations

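A further list held selenoproteins, the machinery that inserts selenocysteine, on which the thioredoxin reductases and several glutathione peroxidases also depend, and the methionine sulfoxide reductases, of which Msra, Msrb2 and Msrb3 are not selenoproteins in the mouse. Of its 23 genes, 11 were higher and 6 lower in labelled Scriptaid, with a median log2 ratio of 0.13, where 22.5% of all genes were higher and 23.7% lower with a median of -0.01. Msrb2, a mitochondrial methionine sulfoxide reductase, was higher at 1.73 (limma adjusted p = 0.00014), and Sephs1, a relative of selenophosphate synthetase, at 0.90 (limma adjusted p = 0.00046). Msrb1, the selenoprotein of the same reductase family, was lower at -0.92 (limma adjusted p = 0.0002).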
